A study of Mus musculus with 2 samples.

Results

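Type I interferon-stimulated genes were examined in resting dendritic cells from inbred mice, CBA/J in comparison with C57BL/6. The group comprises 32 named genes that type I interferon is known to induce. They were chosen by name, and 30 of the 32 were found under their own symbol among 21922 genes measured. The remaining pair, Ifi27l2a and Herc6, is listed in the deposited table under the older symbols Ifi27 and Herc5 and is described separately, outside all counts. The cells were grown from the marrow of normal animals with GM-CSF from the supernatant of the transfected J558L hybridoma and harvested on day 7. They were not stimulated, and RNA was taken 4 h after plating from replicate wells that were combined. The labels say that cells came from individual mice, but not how many mice each combined sample held. The labels name no transgene or deletion in either strain and give no age. GM-CSF cultures of this kind also hold macrophages and granulocytes. Each strain was hybridised to 1 Affymetrix Mouse Gene 1.0 ST array, so the spread between replicates is unknown and nothing could be tested. Strain cannot be told apart from animal, culture or array.

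Type I interferons bind the receptor formed by Ifnar1 and Ifnar2, and the kinases Jak1 and Tyk2 then phosphorylate STAT proteins. The complex ISGF3, which contains Stat2 and Irf9, binds the interferon-stimulated response element, or ISRE, in the promoters of its target genes. Dendritic cells are known to keep a low tonic level of many of these transcripts without infection, and the products sense viral RNA, degrade it, block translation or hold back virions.

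Values are log2 signal as the authors deposited it, and a difference is the CBA/J value less the C57BL/6 value. A gene counted as reaching the level rule if its higher array lay at or above the median of that array over genes, 6.16 for CBA/J and 6.21 for C57BL/6. For reference, 5222 probe sets are annotated as negative controls. Their median was 5.49 for CBA/J and 5.27 for C57BL/6 and their 95th percentile was 8.28 and 8.17, above the median of genes. What these probe sets match was not checked, so a signal below their 95th percentile does not show that a transcript is absent. Signals of different probe sets depend on their probes, so levels of different genes were not compared. For the 11442 genes at the level rule the differences had a median of 0.08 and a robust SD, taken from the median absolute deviation, of 0.26. The probes were made for the reference genome, a C57BL/6 genome, so a sequence difference in CBA/J could lower a signal there, and this was not tested.

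RefSeq promoter windows of mouse build GRCm38.p6, from 250 bases before to 50 bases after the annotated start, were matched by symbol for 23 of the 32 genes. The ISRE core, GAAA followed by any 2 bases and a second GAAA, searched on both strands, was present in 12 of the 23 (52.2%), against 3.99% of all 27025 genes with a window. The following stretches are shown because their genes carry more than 1 such core before the start. Capitals mark the cores, which overlap in Bst2, Isg15, Oas1a and Oas1g, and each stretch is written on its gene's strand.
Ifit1, chr19:34640765-34640833, plus strand: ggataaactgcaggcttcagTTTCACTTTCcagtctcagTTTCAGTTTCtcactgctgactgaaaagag
Ifit3, chr19:34583353-34583436, plus strand: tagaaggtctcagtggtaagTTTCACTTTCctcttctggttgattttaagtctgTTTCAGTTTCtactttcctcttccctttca
Bst2, chr8:71537567-71537622, minus strand: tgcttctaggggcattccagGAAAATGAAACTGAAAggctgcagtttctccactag
Isg15, chr4:156200855-156200916, minus strand: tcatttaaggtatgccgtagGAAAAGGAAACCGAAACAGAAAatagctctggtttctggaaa
Oas1a, chr5:120907526-120907565, minus strand: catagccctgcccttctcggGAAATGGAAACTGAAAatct
Oas1g, chr5:120887614-120887651, minus strand: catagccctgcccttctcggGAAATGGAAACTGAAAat

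All these stretches lie upstream of the annotated transcription start. Ifit1 and Ifit3 hold the same pair of cores on the minus strand in the same order, starting 104 and 85 bases before the start in Ifit1 and 156 and 122 bases before it in Ifit3. Isg15 has 3 overlapping cores that begin between 78 and 66 bases before the start. Oas1a and Oas1g, near-identical neighbours, carry the same cores, GAAATGGAAA and GAAACTGAAA, just before the start. The other genes with the core were Ddx58, Ifih1, Ifitm3, Oas3, Rsad2 and Stat2. Those without it in this window were Cmpk2, Herc6, Ifi35, Ifi44, Ifit2, Irf7, Irf9, Isg20, Oasl1, Oasl2 and Xaf1. The core TTCNNNGAA of the gamma-activated site was found in 6 of the 23 (26.1%), against 9.55% of all genes, and in Bst2 and Ifitm3 it overlaps an ISRE core. These matches describe letters in a window and are not shown to be bound sites.

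Most of the interferon-stimulated genes differed by no more than most other genes did. Of the 30 measured, 27 reached the level rule, and Ifit3, Mx2 and Isg15 did not. Of the 27, Ifi44, Dhx58 and Oas2 reached it through the CBA/J array only, so these 3 had to be higher there. The median difference of the 27 was 0.16, with quartiles of -0.03 and 0.30, beside 0.08 with quartiles of -0.11 and 0.24 over all genes that reached the level rule. Signal was higher in CBA/J for 19 of the 27 (70.4%), beside 61.3% of all such genes. A total of 18 members (66.7%) lay within 1 robust SD of the median of all genes, the same share as among all genes (66.7%).

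Past 1.5-fold in either direction were 3 of the 27 members (11.1%), against a background of 6.93%. Only Ifi44 was at least 2-fold higher in CBA/J, 1 of 27 against a background of 1.35% of all genes that reached the level rule (2.14% in either direction). Its C57BL/6 signal was below the level rule. None was at least 2-fold higher in C57BL/6, where the background was 0.795%. With both arrays centred on these genes, the 2-fold calls over all genes split 120 to 119 in place of 154 to 91. At 1.5-fold, Ifi44 and Usp18 were higher in CBA/J (background 4.46%) and Bst2 was higher in C57BL/6 (background 2.47%). Of the 1845 negative control probe sets at the level rule, 5.47% were past 2-fold and 25.5% past 1.5-fold, so differences of this size also occurred among control probe sets. All 30 members lay above the negative control median on both arrays, but only Stat2, Ifitm3 and Parp14 lay above the 95th percentile on both.

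**Figure D1:**
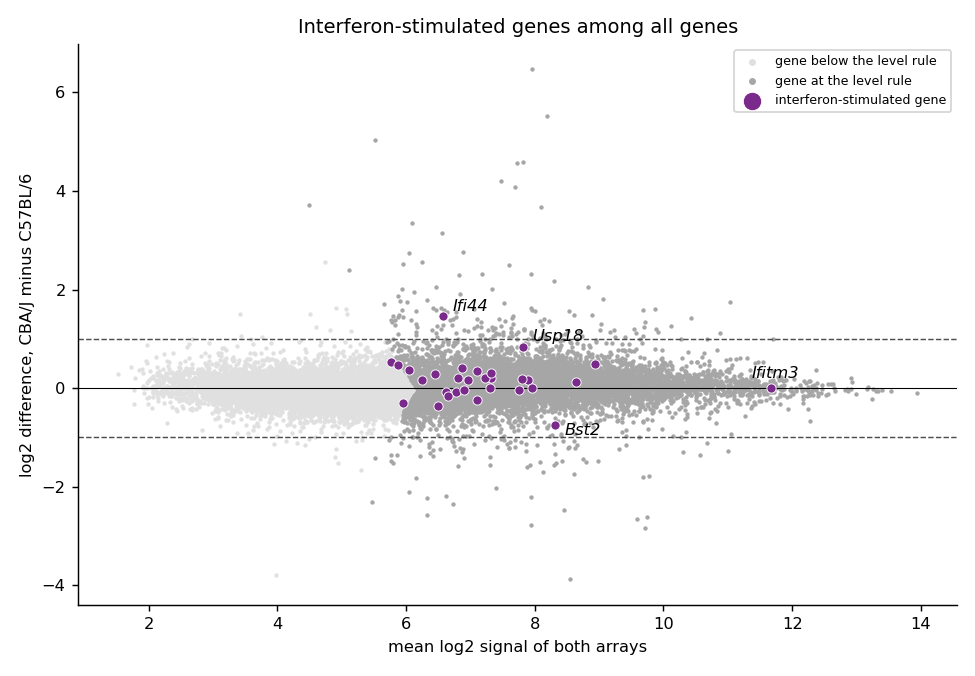
Difference between the strains (vertical axis, log2) against mean log2 signal (horizontal axis) for all genes in grey and the 30 interferon-stimulated genes in purple, with dashed lines at 2-fold. The members lie within the cloud of all genes, with Ifi44 at 1.47, Usp18 at 0.84 and Bst2 at -0.75 farthest from the middle.

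The transcription factors that drive the programme were nearly equal. Irf9, the DNA-binding part of ISGF3, measured 7.97 in CBA/J against 7.81 in C57BL/6. Stat2, which joins it in that complex, had 8.70 and 8.57. Irf7, which amplifies interferon-alpha transcription, had 7.04 and 6.88. All 3 were slightly higher in CBA/J, by 0.13 to 0.16, which is within 1 robust SD of the median of all genes.

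The sensors of foreign nucleic acid showed small differences, 3 of 4 toward CBA/J. Dhx58, which encodes LGP2, a regulator of the RIG-I family, had a signal of 6.23 in CBA/J against 5.87 in C57BL/6, a difference of 0.36. Ifih1, which encodes the long-RNA sensor MDA5, had 7.42 and 7.23. Ddx58, which encodes RIG-I, had 7.89 and 7.70. Both lay within 1 robust SD of the median of all genes, at 0.20 and 0.19. Zbp1, a sensor of Z-form nucleic acid that can trigger cell death, had 6.59 in CBA/J against 6.66 in C57BL/6.

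The IFIT genes, whose products bind viral RNA and block its translation, were all higher in CBA/J by less than 1.5-fold. Ifit1 had a signal of 7.08 in CBA/J against 6.67 in C57BL/6, a difference of 0.41. Ifit2 had 6.60 and 6.31, a difference of 0.29. Ifit3 had 6.04 and 5.50, a difference of 0.54 from signals below the level rule. These genes lie in a cluster on chromosome 19, with Ifit2 and Ifit3 next to each other, and close paralogs there could share signal. The deposited table flags none of the 30 members for cross-hybridisation.

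The OAS genes, a family named for enzymes that make oligoadenylates that activate RNase L, went in both directions. Oasl2 had a signal of 7.28 in CBA/J against 6.93 in C57BL/6, a difference of 0.35. Its direct neighbour on chromosome 5, Oasl1, which in the mouse represses Irf7 translation, had 6.99 and 7.23, a difference of -0.24. Adjacent members of the family thus had opposite signs. The same held for Oas2, at 6.33 and 6.17 (0.17), beside Oas3, at 6.32 and 6.68 (-0.36). Oas1g, at 7.33 and 7.13 (0.20), lay beside Oas1a, at 6.73 and 6.82 (-0.08), and the near-identical sequence of these genes makes their separate signals uncertain. Over the 6 genes the median difference was 0.04, which became -0.01 after quantile normalization and -0.07 after centring. The other Oas1 genes measured, Oas1b, Oas1c, Oas1d, Oas1e, Oas1f and Oas1h, did not reach the level rule.

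Mx genes encode dynamin-like GTPases that trap viral ribonucleoproteins, and many inbred strains are known to carry non-functional alleles. Mx1 was nearly equal, at 7.74 in CBA/J against 7.78 in C57BL/6. Mx2 was at 6.10 and 5.65, a difference of 0.46 below the level rule. The labels do not give the Mx alleles of these animals.

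Within the ISG15 system, which attaches a ubiquitin-like protein to targets, Usp18 stood out. Usp18 removes ISG15 from proteins and also dampens signalling at the interferon receptor. Its signal was 8.24 in CBA/J against 7.39 in C57BL/6, or 1.79-fold higher in CBA/J, the 227th largest difference in that direction among the 11442 genes. Under other scalings its difference was 0.73, still past 1.5-fold. Isg15 itself was at 5.81 and 6.11, below the level rule, a difference of -0.30. The deposited table places the only Isg15 probe set on chromosome 17, whereas RefSeq places the gene on chromosome 4, so this value may not measure the Isg15 transcript. Such a mismatch of chromosome occurred in 2.98% of the probe sets with 1 symbol and a RefSeq accession. Herc6, the main ISG15 ligase of the mouse, listed as Herc5, was at 7.43 and 7.61, a difference of -0.18.

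Enzymes that act on nucleotides and RNA were close on the arrays. Rsad2, which encodes viperin, was at 7.96 in CBA/J against 7.95 in C57BL/6. Cmpk2, a mitochondrial nucleotide kinase gene that adjoins Rsad2 on chromosome 12, was at 6.89 and 6.92. Both members of this pair of neighbours thus differed by 0.03 or less on the log2 scale. Isg20, which encodes an exonuclease that degrades RNA, was at 6.58 and 6.74, a difference of -0.16.

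Of the membrane proteins that act on virions, Bst2 was the member with the largest difference toward C57BL/6. Bst2 encodes tetherin, which holds budding virions at the cell surface. Its signal was 7.93 in CBA/J against 8.69 in C57BL/6, or 1.69-fold higher in C57BL/6, the 158th largest difference in that direction. Ifitm3, which blocks the fusion of entering viruses, was equal at 11.67 and 11.66. Bst2 is also a marker of plasmacytoid dendritic cells, a type that makes much interferon. Of the 10 markers listed for that type, 7 had higher signal in C57BL/6. Their mean log2 signal was 6.92 in CBA/J against 7.12 in C57BL/6. This tally holds Bst2 itself, so it is not separate from the Bst2 difference. The share higher in CBA/J was 30%, beside 48.4% of all genes measured. Cox6a2 was the only one past 2-fold (-1.05, or 10% of the list against 1.23% of all genes measured). Apart from Bst2 and Cox6a2, the differences lay between -0.25 and 0.41. Ccr9, Spib and the defining marker Siglech, at 5.62 and 5.54, were below the level rule. The part of these cells in the Bst2 difference was not tested. In combined RNA such as this, fewer cells of a type and less RNA per cell cannot be told apart.

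Among the remaining members Ifi44 had the largest difference of the whole group. Ifi44 encodes a cytoplasmic interferon-induced protein. Its signal was 7.31 in CBA/J against 5.84 in C57BL/6, a ratio of 2.77 between the signals. That was the 55th largest difference in this direction among the 11442 genes. The C57BL/6 signal lay at the 63.5th percentile of the negative controls and the CBA/J signal at the 87.6th, so the size of the difference in transcript is not settled by this ratio. The paralog Ifi44l, listed under the older symbol H28 and adjacent to Ifi44 on chromosome 3, was at 5.86 in CBA/J against 4.26 in C57BL/6. The C57BL/6 signal of Ifi44l lay below the negative control median and the gene did not reach the level rule.

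The other members were higher in CBA/J by less. Parp14, an ADP-ribosyltransferase gene, was at 9.18 in CBA/J against 8.69 in C57BL/6, a difference of 0.49 in signals above the 95th percentile of the negative controls. Rtp4, which encodes a receptor transporter protein, was at 7.47 and 7.16, a difference of 0.31. Xaf1, which encodes a partner of the apoptosis inhibitor XIAP, was at 6.91 and 6.70, a difference of 0.21. Ifi35, whose product binds Nmi, was at 7.31 and 7.30. Ifi27l2a, listed as Ifi27 and not counted, was at 6.85 and 6.40, a difference of 0.45.

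**Figure D2:**
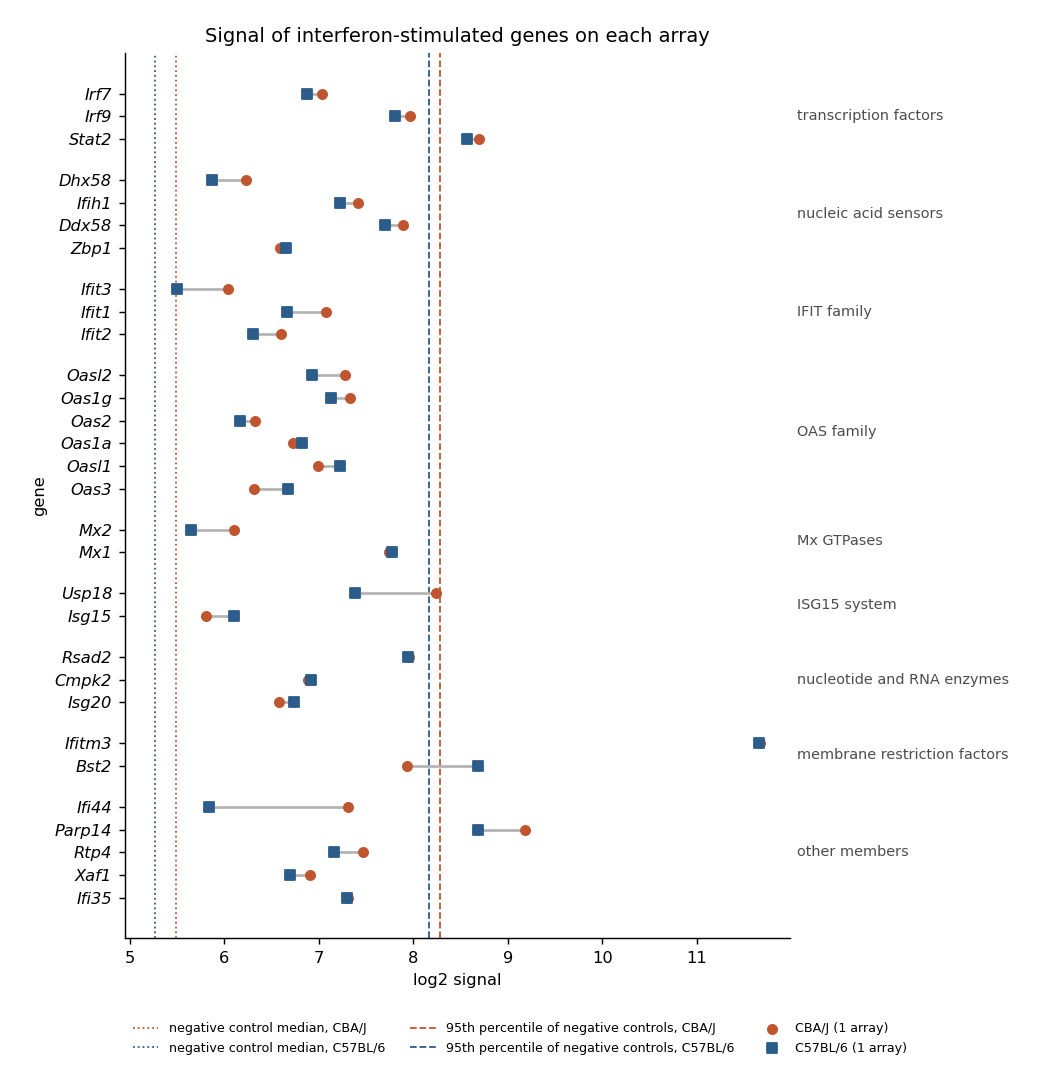
Log2 signal (horizontal axis) of the 30 interferon-stimulated genes on the CBA/J array (circles) and the C57BL/6 array (squares), grouped by role, with lines at the median and the 95th percentile of the negative controls. The longest connecting lines are those of Ifi44 (7.31 and 5.84), Usp18 (8.24 and 7.39) and Bst2 (7.93 and 8.69).

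**Figure D3:**
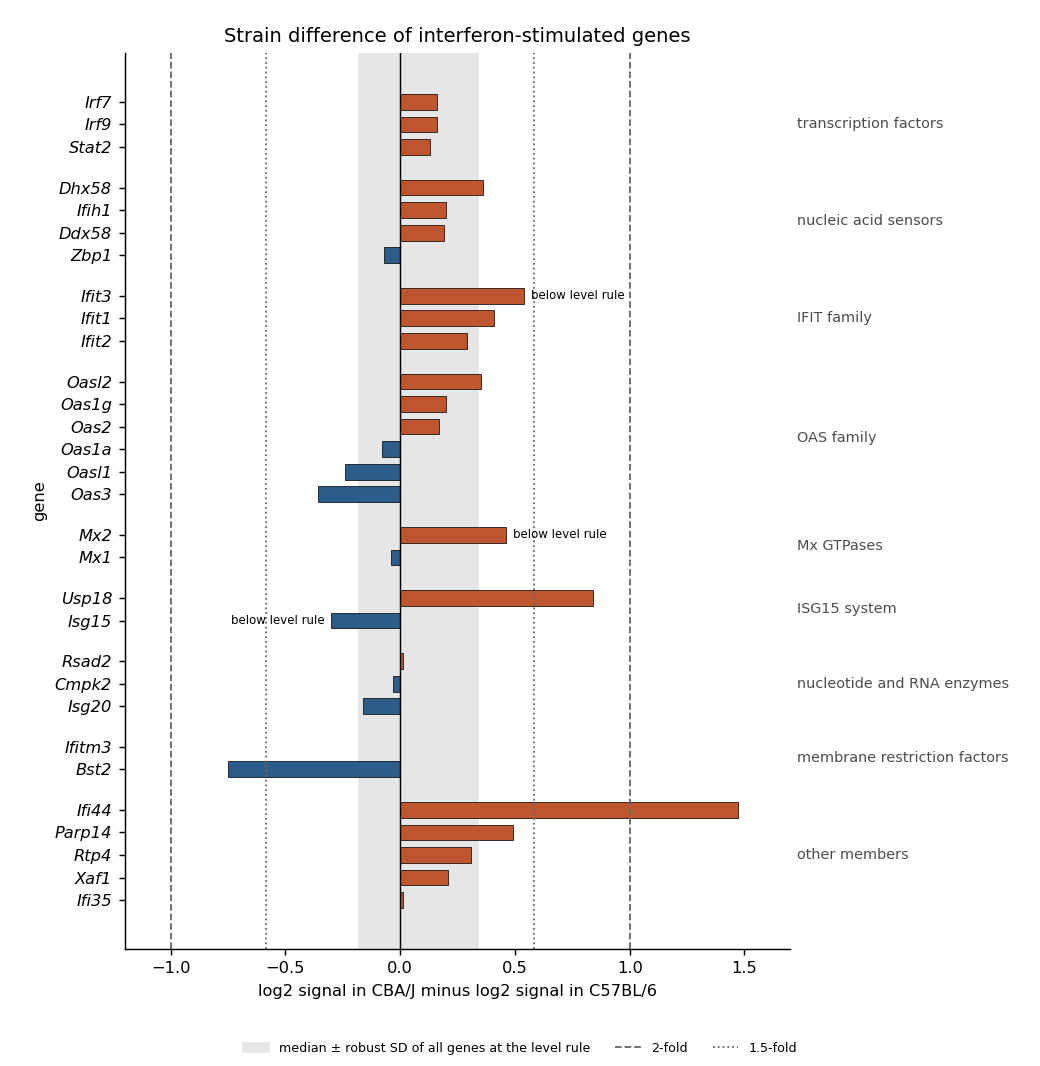
Log2 difference, CBA/J minus C57BL/6, of each member by role, with orange bars for higher signal in CBA/J and blue bars for higher signal in C57BL/6. The grey band is the median of all genes at the level rule, 0.08, plus and minus 1 robust SD of 0.26, and the dotted and dashed lines mark 1.5-fold and 2-fold. Only the bar of Ifi44 passes 2-fold.

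Members with and without the ISRE core overlapped in their differences. For this comparison the level rule was not applied. The 12 measured members with the core, among them Ifit3 and Isg15 below that rule, had a median difference of 0.07, with 8 higher in CBA/J. The 10 without it in the window had a median of 0.16, with 7 higher in CBA/J. Over all genes measured, the median was 0 and 48.4% had higher signal in CBA/J. The 8 include Ifitm3 (0.00) and Rsad2 (0.01), and the 7 include Ifi35 (0.01), all nearly equal on the arrays. Bst2, with cores, and Ifi44, with none, were the extremes of each set. The annotation of the deposited table attached the term response to virus to 7 of the 30 members (Irf7, Ifih1, Ddx58, Mx1, Mx2, Isg15 and Rsad2), against 0.187% of all genes, and gave 11 members (36.7%) no biological process term, as it did 39% of all genes. Of the other genes whose terms contain those words, 22 reached the level rule, and 2 of them, Fv1 and Tlr9, were past 1.5-fold (9.09% against 6.93% of all genes), both higher in CBA/J, with Tlr9 under 1.5-fold in 3 other scalings. Fv1, a retrovirus restriction gene that is known to differ in allele between strains, was at 7.44 and 6.57.

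Upstream of these genes, most interferon genes did not reach the level rule. Of 19 interferon genes, 9 lay below the negative control median on both arrays. The level rule was reached by 4, and none of these was past 1.5-fold. They were Ifnz (6.79 in CBA/J against 6.33 in C57BL/6), Ifna5 (6.81 and 7.10) and the lambda interferon genes. Of the latter, Il28a was at 7.28 and 7.67 and Il28b at 6.42 and 6.65. Ifnb1, the first type I interferon gene to be induced in many cells, was at 4.46 in CBA/J against 4.56 in C57BL/6, below both negative control medians. Ifng was at 5.30 and 5.64. Both genes thus had signals near or below the negative control median on each array.

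The receptor chains and kinases of the type I pathway reached the level rule and were close. Ifnar1, Ifnar2 and Jak1 lay above the 95th percentile of the negative controls on both arrays, and Tyk2 lay below it on both. Ifnar1 was at 9.53 in CBA/J against 9.28 in C57BL/6, and Ifnar2 was at 9.14 and 9.12. Jak1 was at 10.88 and 10.51 and Tyk2 was at 7.81 and 7.85. None of these chains and kinases of the type I receptor was past 1.5-fold. Of 8 receptor and kinase genes at the level rule, 1 (12.5%) was past 1.5-fold, against 6.93% of all genes. This was Il10rb, a shared chain of the interleukin-10 and lambda interferon receptors, at 9.34 and 10.16.

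Signalling factors outside the group had a median difference of 0.00 over 9 genes. Of these, 1 was past 1.5-fold in each direction (22.2% against 6.93% of all genes) and 1 past 2-fold (11.1% against 2.14%). Irf3, which turns on interferon genes after sensing, was at 7.42 in CBA/J against 7.52 in C57BL/6. Stat4, a factor best known from interleukin-12 signalling, was at 7.90 and 8.97, 2.09-fold higher in C57BL/6. Irf1, which responds strongly to interferon-gamma, was at 8.45 and 7.81, 1.56-fold higher in CBA/J, but its difference was under 1.5-fold after quantile normalization, centring or removal of the trend with signal level.

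Among genes that induce interferon, 14 reached the level rule with a median difference of 0.18. Of these, 11 had higher signal in CBA/J (78.6%, beside 61.3% of all such genes). Tlr9, a DNA sensor of endosomes, was past 1.5-fold toward CBA/J at 8.58 and 7.94, but under 1.5-fold with each of the 3 changes of scaling that also moved Irf1. Trim25, a ubiquitin ligase that acts on RIG-I, was past it toward C57BL/6 at 9.34 and 10.03. Negative regulators of interferon signalling had a median of 0.15 over 15 genes. Axl, a receptor kinase, was at 9.93 and 9.16, and Cish, a cytokine feedback gene, was at 6.80 and 7.58. Socs1, the main intracellular brake on Janus kinases, was at 6.57 and 6.88. In both of these lists 1 gene was past 1.5-fold in each direction, or 14.3% and 13.3% of the genes against 6.93% of all genes.

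A list of 71 further interferon-induced genes showed no common direction. Of the 59 that reached the level rule, 33 had higher signal in CBA/J and 26 in C57BL/6, with a median of 0.05. The share higher in CBA/J was 55.9%, beside 61.3% of all such genes. At least 1.5-fold differences were found in 5 toward CBA/J and 6 toward C57BL/6, 18.6% together against the background of 6.93%. Toward CBA/J the largest were Phf11 (6.43 and 5.32, the latter close to the negative control median), Ifitm6 (9.93 and 8.88) and the guanylate-binding protein gene Gbp3 (7.88 and 7.05). Toward C57BL/6 they were Samd9l (6.36 and 7.22), Slfn8 (6.25 and 6.98) and the peptide transporter gene Tap1 (7.52 and 8.21). Some of these genes belong to families known to vary in sequence between strains, such as the Slfn and Gbp genes, and probe mismatches were not tested.

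**Figure D4:**
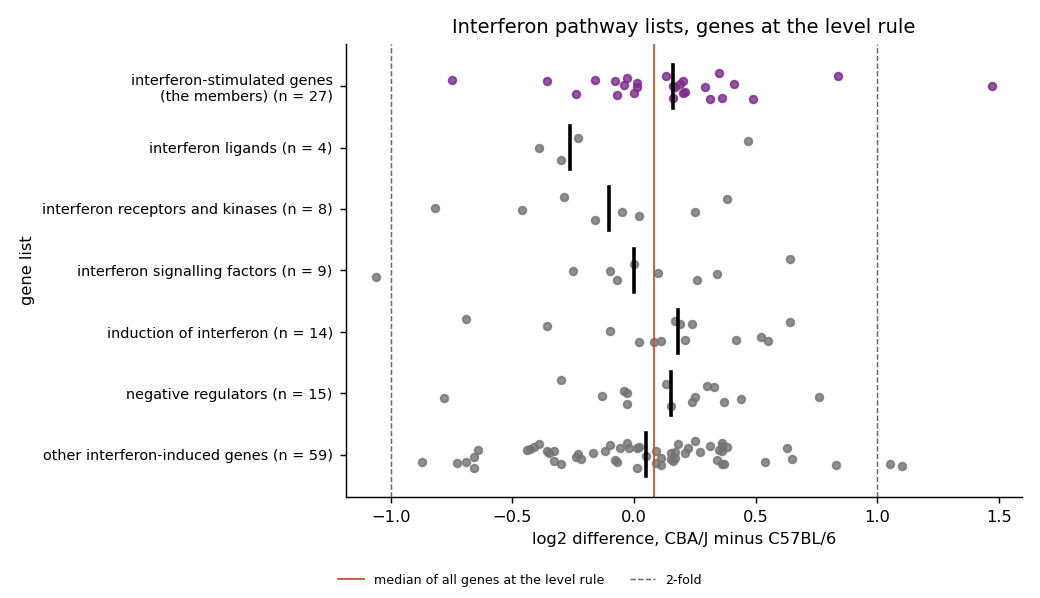
Log2 difference, CBA/J minus C57BL/6 (horizontal axis), of each gene at the level rule (points) in the interferon-stimulated genes and 6 lists of the pathway around them, with the median of each list as a black bar and the median of all genes, 0.08, as a line. The list medians lie between -0.26 for interferon ligands and 0.18 for genes that induce interferon.

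Markers of several cell types also differed between the arrays. Of all genes measured, 48.4% had higher signal in CBA/J and 1.23% were past 2-fold, or 61.3% and 2.14% of those at the level rule. Markers of dendritic cells were higher in C57BL/6 in 8 of 12, with a mean log2 signal of 9.35 in CBA/J against 9.49 in C57BL/6. Their defining markers were bright on both arrays, with Itgax at 10.50 in CBA/J against 10.63 in C57BL/6 and Cd74 at 12.02 and 12.33, while Flt3 was below the level rule at 5.67 and 5.65. In that list Dpp4 (1.05) and H2-Ab1 (-1.28) were past 2-fold. Macrophage markers had higher signal in CBA/J in 8 of 10, with a mean log2 signal of 9.55 against 9.03 and Mrc1 past 2-fold. Monocyte markers were higher in CBA/J in 6 of 7, with means of 9.13 and 8.22, 4 of them past 2-fold (Ccr2, Ms4a6c, Fn1 and Vcan) and Ly6c1 past 2-fold the other way. Neutrophil markers were higher in CBA/J in 8 of 10, with means of 6.58 and 5.71. Only Ly6g, Ngp, S100a8 and S100a9 reached the level rule, and all 4 were past 2-fold. Ly6g (7.53 in CBA/J against 4.96 in C57BL/6) and the monocyte marker Ms4a6c (6.89 and 5.14) reached it through the CBA/J array only. These markers thus had to be higher there, and their C57BL/6 signals lay below the negative control median. Below that rule, Ltf (0.75), Cxcr2 (0.33), Retnlg (0.28), Camp (0.09), Mpo (-0.01) and Elane (-0.11) were under 2-fold. Mast cell and basophil markers had means of 4.79 and 5.27, with Cpa3 past 2-fold toward C57BL/6 and 4 of 7 below the negative control median on both arrays. Cpa3 (5.04 and 7.61) reached the level rule through the C57BL/6 array only, and its CBA/J signal lay below the negative control median. None of 9 T, B and NK cell markers reached the level rule, with means of 4.82 and 4.66, and the largest difference was in Klrb1c (0.82). The part of these cells in the differences of Ifi44 and Usp18 was not tested.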

How the data were processed

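The authors deposited log2 signal per probe set of 2 Affymetrix Mouse Gene 1.0 ST arrays, and the submitters' processing notes name Affymetrix Expression Console 1.1. How probes were summarized and normalized was not given in the sources used. The deposited log2 difference and linear ratio (fold), per the file headers, were not used. The series' value table held the same values. Of 35557 probe sets, 24422 carried 1 symbol (25 of them turned into dates and restored by accession), giving 21922 genes, each represented by its brightest probe set; every member had 1. No per-sample column was left unmatched (0). With 1 array per strain, genes were counted by size of difference. The members and the gene lists were chosen with earlier results of these data known. All members were named; of each list, genes past 1.5-fold (at most 3 a direction where over 6 passed) and defining genes (1 of which is not reported here), and of each marker list those past 2-fold or, if none, the largest difference. Of 146 names in the 6 pathway lists, 140 matched a gene outside the members; a name missing from the files was matched through the RefSeq table of GRCm38.p6. The counting was tested on simulated data. Python 3.11.15, numpy 2.4.6, pandas 2.3.3, statsmodels 0.14.6 and matplotlib 3.10.9 were used.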

Additional observations from a re-analysis of the deposited data

How the results depend on the processing

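Only 2 arrays limit the precision, and a value was read as unchanged if it moved by less than the robust SD of 0.26 or, for a count, by at most 1.5 times. Of 193 recomputed member differences none moved by that much, the largest move being 0.13. Only quantile normalization, centring and removal of the trend with signal level could move a member's difference. The other settings changed the level filter, raised low signals to the negative control median, averaged a gene's probe sets or took the series' value table. None of these could move it, as every member had 1 probe set and lay above that median. Rsad2 and Ifi35, both at 0.01, turned negative under each of the 3 changes of scaling. Centring took 0.11 off every difference. It left the median of the members at 0.04 and 16 of 27 higher in CBA/J, with the median of all genes at -0.04. The members past 2-fold and 1.5-fold stayed the same in number except under the strict level filter (higher array at or above the 95th percentile of the negative controls). That filter kept 0 members past 2-fold and 0 past 1.5-fold toward CBA/J and 3 with higher signal in CBA/J, because Stat2, Ifitm3, Parp14 and Bst2 were the only members left. It also left 1 further interferon-induced gene past 1.5-fold toward CBA/J and 3 toward C57BL/6, and 0 negative regulators toward C57BL/6, against 2 of these with no level filter. With no level filter the ISG15 system had a median of 0.27 in place of 0.84, since Isg15 joined Usp18, and the Mx genes 0.21 in place of -0.04. Under quantile normalization, centring and trend removal, 0 signalling factors and 0 induction genes were past 1.5-fold toward CBA/J, and after centring 3 further interferon-induced genes were. The median of those further genes, 0.05, became -0.01, -0.06 and -0.01 under these 3 settings. Where no cause is stated here, the cause was not tested. The mean of the members was 0.16, and their median stayed at 0.16 without Isg15 or with the 2 members under older symbols, both chosen after seeing the data. Neither change could move the median of the 27. Isg15 is not among them, and the 2 members under older symbols lie on either side of it (-0.18 and 0.45). A search with GAANNGAA found 11 of 23 (47.8% against 22.7% of all genes), only 5 of them among the 12 with the main core. GAANNGAA does not occur within the main core, which holds 1 base more between its GAA blocks. Its count is thus that of another motif and no check on the ISRE count. Chosen after seeing the data, GAANNNGAA, which every main core contains, gave 17 (73.9% against 24% of all genes), in Ifi44 partly in a GAA repeat. No paired analysis was possible because each strain had 1 array.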
